A study of Mus musculus with 2 samples.

Results

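Dendritic cells carry antigen to T cells, and the spleen holds several kinds of them. All depend on the growth factor receptor FLT3. Conventional dendritic cells of type 1 cross-present antigen of dead cells under the control of BATF3 and IRF8, those of type 2 express SIRPα at the surface and prime CD4+ T cells, and plasmacytoid dendritic cells, governed by TCF4, release type I interferon. Mice without SIRPα signalling are known for a shortage of the type 2 cells in the spleen. A sort of splenic macrophages can carry some dendritic cells along, so marker transcripts of these cells were examined in the sorted macrophages.

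The 9 marker genes were Flt3 and Itgax, shared among dendritic cells, Zbtb46 of conventional dendritic cells, Xcr1, Clec9a and Batf3 of type 1 cells, Cd209a of type 2 cells, and Siglech and Tcf4 of plasmacytoid cells. Every non-control probe whose accession belongs to 1 of these genes was taken, which gave 14 probes of 39386. The genes were 9 of 20642 that could be named. Of these, 5 had 2 probes and 4 had 1, and every marker probe was a single spot on each array.

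The samples were red pulp macrophages, phagocytes of the spleen that take up worn-out erythrocytes, sorted from mouse spleen by a surface antigen of macrophages, the product of Adgre1, and by low CD11b. They came from SIRPα-KO mice on 1 array and from WT mice on 1 array, each array holding a pool of 5 mice. The first is also called the KO-labelled array here. Collagenase digestion, lysis of red blood cells and removal of globin messages were shared by both genotypes, and RNA was labelled with Cy3 in 1 colour. The labels name no allele, strain or age of the mice. Since each genotype has only 1 array, no test over samples could be run, and precision is limited by that number of arrays. A difference was called where the scaled signals lay at least 2-fold apart, which is 1 on the log2 scale. All differences are on the log2 scale of signal divided by the 75th percentile of the array, and an error after ± is the scanner software's spot error carried to the difference, which covers neither mice nor pools.

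The targeted gene did not bear out the genotype label. Sirpa had a signal of 1006 on the array labelled SIRPα-KO, against 795 on the WT array, a difference of 0.51 ± 0.20. The labels do not say whether that probe falls in the deleted stretch, and a probe outside it would check nothing. The genes of the sort antigens were bright at 1 probe each, although the sort took cells low in CD11b. How transcript signal relates to surface CD11b here was not tested. Adgre1 had signals of 10406 on the array labelled SIRPα-KO and 6830 on the WT array, and Itgam, which encodes CD11b, had 16619 on the KO-labelled array and 11027 on the WT array. The differences at these probes were 0.78 for Adgre1 and 0.76 for Itgam. The other Adgre1 probe had 474 on the KO-labelled array and 737 on the WT array (-0.47). The other Itgam probes were dim, with 64 on the KO-labelled array and 72.5 on the WT array at the first (-0.01), and 41.9 on the KO-labelled array and 43 on the WT array at the second (0.13). Of 14 fixed red pulp macrophage markers, 12 were well above background on at least 1 array, and Mertk and Mrc1 on neither. Over all 20642 named genes, 15833 passed the same bar, so this count says little about the sort. Among the 12, Csf1r was bright, with 6697 on the KO-labelled array and 6601 on the WT array. Spic was dim, with 53.6 on each array, as was Cd163, with 23.6 on the KO-labelled array and 39.2 on the WT array. Of other macrophage genes, chosen after their values were seen, the ferritin gene Ftl1 was bright, with 89145 on the KO-labelled array and 60587 on the WT array. The protease gene Ctsb was bright as well, with 25423 on the KO-labelled array and 20913 on the WT array. The lysozyme gene Lyz2, with 4.75 on the KO-labelled array and 11.5 on the WT array, was well above background only on the WT array. The lysosomal gene Psap, with 1.86 on the KO-labelled array and 1.61 on the WT array, was well above background on neither. Across 5467 genes with at least 2 probes, the signals of the first pair of probes of a gene, in order of probe name, correlated with Spearman's rho = 0.143 on the array labelled SIRPα-KO and 0.148 on the WT array. These points share 1 array and are genes, not replicates. Whether each probe reads the gene that its accession names was not tested, nor was RNA quality. A value given for a gene is thus that of the named probe, and each probe of a marker is given by itself.

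Of the 9 marker genes, only Flt3, the receptor for the growth factor that drives dendritic cell development, passed the limit downward, and 0 passed it upward. All 9 were well above background at their brightest probe on at least 1 array. Over all 15833 genes measured this way, 5.46% lay at least 2-fold lower and 3.11% higher by as much, so a single lower gene among 9 is close to that background. The median difference was 0.01 over the 9 markers and -0.08 over all measured genes. Of the brightest probes, 5 lay above 0 and 4 below 0. Counted by probe, 13 of the 14 were measured and 2 were at least 2-fold lower, both of Flt3, against 4.95% of all 28664 measured probes, and none was higher by that much, against 3.24%. At a limit of 1.5-fold, Itgax and Siglech counted as higher and Flt3 and Cd209a as lower, against 11.4% and 13.3% of all genes. At 3-fold no marker gene was called, against 0.663% higher and 2.38% lower.

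**Figure D1:**
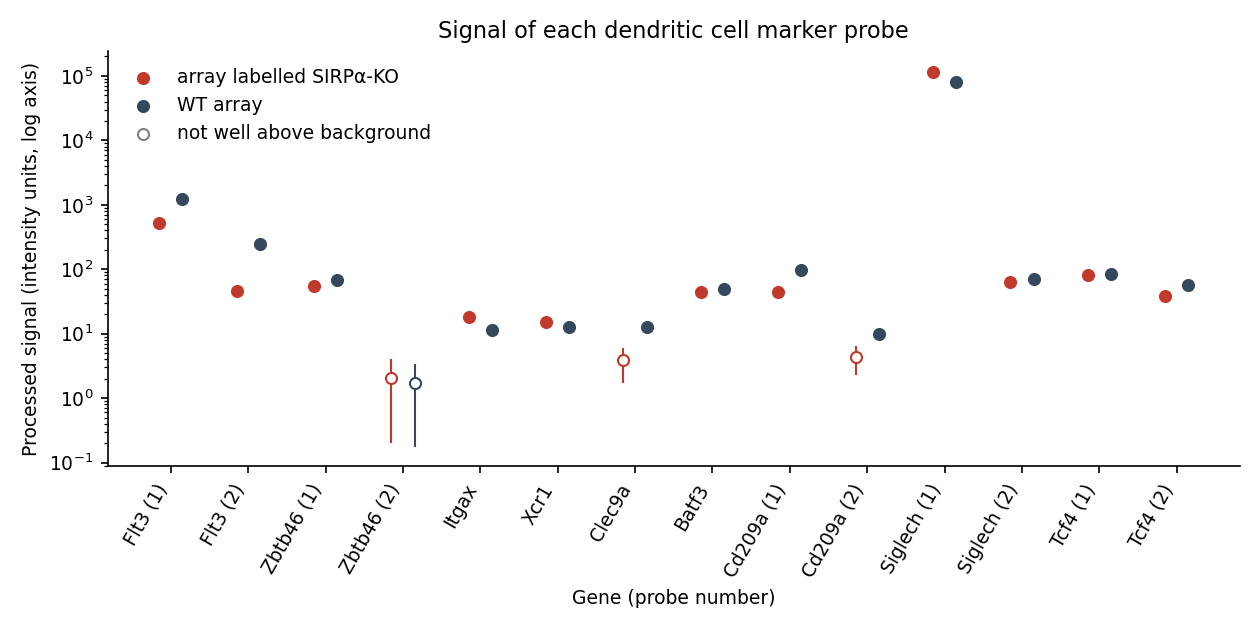
Processed signal (intensity units, log axis) of the 14 probes of the 9 dendritic cell markers on the KO-labelled and WT arrays; bars are the software's spot error, shortened below for the dim Zbtb46 probe, and open circles were not well above background. Both Flt3 probes and the brighter Cd209a probe lie lower on the KO-labelled array, while the brighter Siglech probe lies higher, at 113603 on the KO-labelled array against 79647 on the WT array.

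The signal of Flt3 at its brighter probe was 516 ± 51.6 on the array labelled SIRPα-KO, against 1217 ± 122 on the WT array. That is a difference of -1.07 ± 0.20, or 2.1-fold lower. At its other probe the signal was 46.8 ± 5.07 on the array labelled SIRPα-KO and 250 ± 25.1 on the WT array, a difference of -2.25 ± 0.21, or 4.76-fold lower. Both probes were well above background on both arrays and went the same way, and their differences lay apart from each other by more than their spot errors. Among 2614 genes with at least 2 probes well above background on both arrays, 13 (0.497%) passed 2-fold downward at every such probe, Flt3 among them, and 6 (0.23%) upward. At every such probe below 0 were 799 (30.6%). Lower calls were more frequent among bright genes. In the tenth of genes with mean signals from 312 to 1013, where Flt3 lies, 11.2% of 1583 genes were at least 2-fold lower.

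The brighter Flt3 probe sat close to the 2-fold limit and did not reach it under all scalings. Its difference was -0.84 in the authors' processed values, -0.84 after quantile normalization and -0.92 after cyclic loess. The other probe differed by -2.22 in the authors' values. In a bulk sample, fewer cells of a type and less RNA per cell cannot be told apart, so the shares of conventional and plasmacytoid dendritic cells themselves were not measured.

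Of the other genes around FLT3, some lay lower and most differed little. Flt3l, which encodes the ligand, had signals of 52.7 on the array labelled SIRPα-KO and 61.3 on the WT array (-0.05 ± 0.22). Of 12 fixed genes of the FLT3 pathway and dendritic cell development, 9 were measured, with a median of -0.05. Of these 9, 2 passed 2-fold downward, against 5.46% of all genes, and 0 upward, against 3.11%, while 6 lay below 0 and 3 above. Csf2, which encodes the cytokine GM-CSF, was at least 3.02-fold lower, with a signal of 4.22 that was not clear of background on the array labelled SIRPα-KO, against 30.5 on the WT array. Ikzf1, a lymphoid and dendritic cell transcription factor, was 2.2-fold lower, with 22.5 on the KO-labelled array and 55.6 on the WT array (-1.14 ± 0.24), while its further probe differed by 0.28. The GM-CSF receptor chains Csf2ra (0.25 ± 0.20) and Csf2rb (0.27 ± 0.20), the brightest genes of this list, lay slightly above 0.

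Zbtb46 encodes a transcription factor that marks conventional dendritic cells and their committed precursors. Its brighter probe had a signal of 54.7 on the array labelled SIRPα-KO and 69.1 on the WT array, a difference of -0.17 ± 0.21 that is smaller than its error. Its other probe, at 2.03 on the KO-labelled array and 1.72 on the WT array, was well above background on neither array and gives no fold.

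Itgax encodes CD11c, an integrin chain of dendritic cells that some macrophages and NK cells express too. Its signal was 18.1 ± 2.69 on the array labelled SIRPα-KO, against 11.3 ± 2.09 on the WT array. The difference of 0.85 ± 0.34, or 1.81-fold higher, was the highest among the markers, stayed below the 2-fold limit and went opposite to that of Flt3. Its signal on the WT array was low, against 7.92 for the lowest signal well above background there. The difference fell to 0.23 after normexp background correction. That setting adds an offset larger than both Itgax signals, which shrinks differences of dim probes by construction. The fall thus does not tell whether the Itgax difference holds.

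The promoter windows of the markers with the lowest and highest differences at their brightest probes are shown because Flt3 and Cd209a lay lower and Itgax higher. They come from RefSeq on GRCm38.p6, hold the 250 bases before the annotated start, and are read on the strand of the gene. RefSeq windows were found for 8 of the 9 markers. Capitals mark GGAAGT, the core bound by ETS factors such as PU.1, and TGANTCA, the AP-1 element bound by BATF proteins with JUN partners, on either strand.
Flt3, chr5:147400490-147400739, minus strand: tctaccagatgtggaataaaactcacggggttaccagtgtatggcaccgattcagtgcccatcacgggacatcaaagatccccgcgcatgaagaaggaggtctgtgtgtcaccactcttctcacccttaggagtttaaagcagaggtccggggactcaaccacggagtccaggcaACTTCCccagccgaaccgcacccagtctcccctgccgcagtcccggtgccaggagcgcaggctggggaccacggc
Cd209a, chr8:3748985-3749234, minus strand: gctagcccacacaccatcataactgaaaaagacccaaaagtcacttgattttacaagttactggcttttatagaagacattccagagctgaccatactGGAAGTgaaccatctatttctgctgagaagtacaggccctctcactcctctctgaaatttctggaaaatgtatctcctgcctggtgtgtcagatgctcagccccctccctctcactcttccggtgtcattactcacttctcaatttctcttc
Itgax, chr7:128129300-128129549, plus strand: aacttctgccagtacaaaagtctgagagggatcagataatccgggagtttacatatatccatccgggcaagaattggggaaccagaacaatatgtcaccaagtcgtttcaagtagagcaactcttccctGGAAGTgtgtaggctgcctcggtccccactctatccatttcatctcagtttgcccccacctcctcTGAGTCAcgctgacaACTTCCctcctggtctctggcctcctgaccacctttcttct

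The ETS core GGAAGT occurred once in the Flt3 and Cd209a windows and at 2 places in the Itgax window, and 19.7% of all 32851 windows hold it. TGANTCA occurred in the Itgax window alone of these 3, and in 6.75% of all windows. The E-box CANNTG, the element of TCF4 and related factors, left in lower case, was in the Flt3 and Cd209a windows, as in 66.2% of all windows. No match overlapped another. These are matches of letters, and with 3 windows nothing is read from which marker holds which motif.

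The markers of type 1 conventional dendritic cells showed no common direction. Xcr1, the receptor for the chemokine XCL1, had a signal of 15 ± 2.54 on the array labelled SIRPα-KO and 12.7 ± 2.3 on the WT array (0.41 ± 0.36). Batf3, the transcription factor that these cells require, had 45 ± 4.99 on the array labelled SIRPα-KO and 50.2 ± 5.34 on the WT array, a difference of 0.01 ± 0.22 after scaling. Clec9a, a receptor for actin exposed by dead cells, had 3.86 ± 2.15 on the array labelled SIRPα-KO, where it was not well above background, and 12.5 ± 2.24 on the WT array. Its fold is a lower bound, at least 1.24-fold lower (-0.31), set by the dimmest clearly measured signal of the array labelled SIRPα-KO, 8.98.

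The fixed list of further type 1 genes held 9 measured genes, with a median of 0.19. Of these, 1 passed 2-fold upward, against 3.11% of all genes, and 0 downward, against 5.46%. The higher gene was Cadm1, an adhesion molecule of these cells and of several other tissues, with signals of 61.3 on the array labelled SIRPα-KO and 27.9 on the WT array (1.31 ± 0.23, 2.47-fold). Naaa, a lysosomal amidase of type 1 cells, differed by 0.19 ± 0.22. Irf8, the transcription factor required by both type 1 and plasmacytoid cells, had low signals of 11.2 on the KO-labelled array and 10.1 on the WT array (0.33 ± 0.39). The values of Xcr1, Batf3, Naaa and Irf8 were each within or close to their spot errors.

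Cd209a, a C-type lectin of type 2 conventional dendritic cells and of monocytes, fell just short of the 2-fold limit. Its brighter probe had a signal of 44.2 ± 4.83 on the array labelled SIRPα-KO, against 97.8 ± 9.94 on the WT array, a difference of -0.98 ± 0.22, or 1.97-fold lower. Its other probe had 4.4 ± 2.1 on the array labelled SIRPα-KO, not well above background, and 9.94 ± 2.07 on the WT array. Once the measured floor of the array labelled SIRPα-KO, 8.98, is scaled, it passes the scaled WT value, so no fold is given for this probe. In the tenth of genes with mean signals from 55.8 to 87.6, where Cd209a lies, 3.6% of 1583 genes were at least 2-fold lower. The authors' processed values gave -0.99 for the brighter probe, and normexp gave -0.49. The offset added in normexp shrinks the difference of a probe this dim by construction, so the -0.49 is no test of it.

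Of 12 measured further genes of type 2 cells, 2 passed 2-fold upward, against 3.11% of all genes, and 0 downward, against 5.46%. Their median was 0.17, with 7 above 0 and 5 below. Clec4a2, an inhibitory C-type lectin of myeloid cells, had signals of 284 on the array labelled SIRPα-KO and 94.4 on the WT array (1.76 ± 0.21, 3.38-fold higher). Clec10a, a galactose-binding lectin of type 2 cells and macrophages, was at least 2.33-fold higher, with 16.4 on the array labelled SIRPα-KO and 7.39, not well above background, on the WT array. The brightest genes of the list, the lectin gene Mgl2 and Cd4, which T cells also express, differed by less than their errors at their brightest probes. Mgl2 had 15561 on the KO-labelled array and 19134 on the WT array (-0.13 ± 0.20), and Cd4 had 4864 on the KO-labelled array and 6166 on the WT array (-0.17 ± 0.20), while a further Cd4 probe lay at -0.43. Of the relatives of Cd209a, Cd209d differed by -0.50 ± 0.20 and Cd209f by 0.47 ± 0.21, and Cd209b was well above background on neither array. Irf4, a transcription factor of type 2 cells, gave only a bound, at least 1.22-fold lower. Its signals were 11.1 on the array labelled SIRPα-KO and 15.3 on the WT array. Esam also gave a bound, at least 1.83-fold higher. It had 12.9 on the KO-labelled array and 4.6, not well above background, on the WT array. The remaining measured genes were Dtx1 (0.92 ± 0.21), Klf4 (0.91 ± 0.25), Notch2 (0.20 ± 0.21), Cd7 (0.15 ± 0.25) and Rbpj (-0.02 ± 0.21, further probe 0.76).

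**Figure D2:**
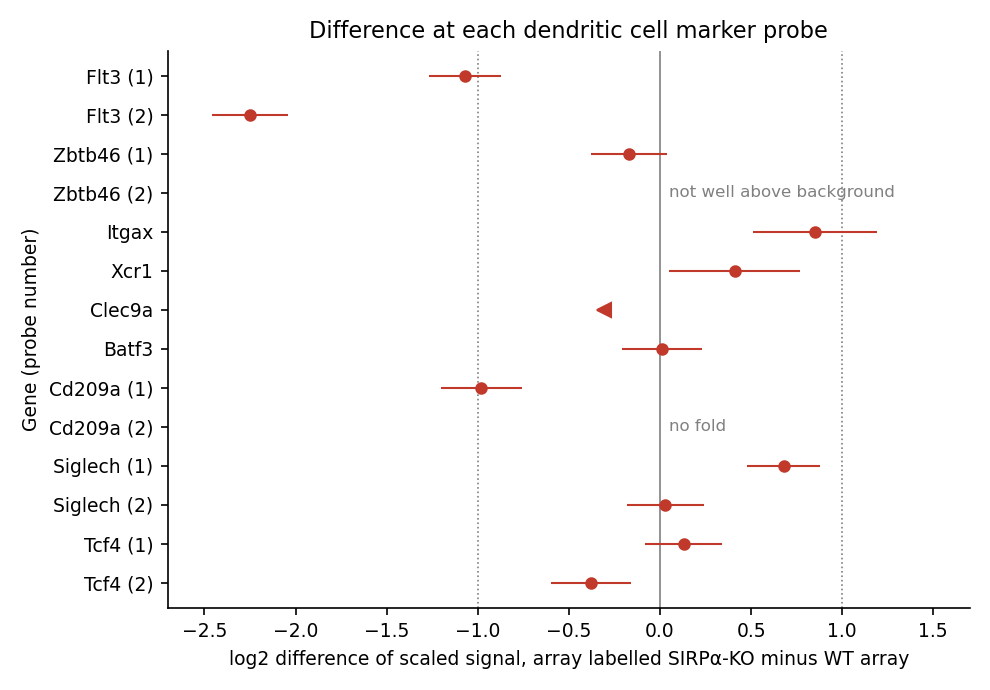
Log2 difference of scaled signal, array labelled SIRPα-KO minus WT array, at each marker probe; bars are the spot error, the triangle is a lower bound, and dotted lines mark 2-fold. The Flt3 probes at -1.07 and -2.25 lie beyond the lower line, Cd209a at -0.98 just short of it, and no probe passes the upper line.

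The plasmacytoid markers gave no difference of 2-fold in either direction. Siglech encodes Siglec-H, an endocytic receptor of plasmacytoid dendritic cells that certain macrophages also carry. Its brighter probe had a signal of 113603 ± 11360 on the array labelled SIRPα-KO and 79647 ± 7965 on the WT array (0.68 ± 0.20, 1.6-fold higher). Its other probe had 64.4 ± 6.76 on the KO-labelled array and 70.7 ± 7.3 on the WT array, a difference of 0.03 ± 0.21. The probes of Siglech thus disagreed in size of difference by more than their errors, and no spot was saturated on either array. The brighter probe depended on the scaling as well, with 0.35 after quantile normalization, 0.38 in the authors' values and 0.95 after cyclic loess.

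Tcf4, the transcription factor that keeps plasmacytoid identity and is expressed in many other cells, had signals of 82.1 ± 8.42 on the array labelled SIRPα-KO and 84.3 ± 8.59 on the WT array at its brighter probe (0.13 ± 0.21). At its other probe it had 38.9 ± 4.35 on the array labelled SIRPα-KO and 57 ± 5.97 on the WT array (-0.38 ± 0.22). The probes lay on opposite sides of 0. Of 11 measured genes of the plasmacytoid list, none passed 2-fold either way (0 of 11), against 3.11% of all genes higher and 5.46% lower. The median was -0.03, with 5 above 0 and 6 below. Its brightest genes were Pacsin1, a membrane-bending adaptor (0.01 ± 0.20), and Tlr7, a sensor of single-stranded RNA (0.25 ± 0.20, with a further probe at -0.38). Ccr9, a chemokine receptor of plasmacytoid cells and T cells, had the lowest value of the list, with 941 on the array labelled SIRPα-KO and 1853 on the WT array (-0.81 ± 0.20). Spib had the highest, with 76.7 on the array labelled SIRPα-KO and 66.2 on the WT array (0.38 ± 0.21). Irf7, the interferon regulator of these cells, was well above background on neither array.

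Genes common to dendritic cells and genes of their maturation were also set beside the markers. In the list of pan dendritic cell genes, 4 of 8 were measured and all 4 lay below 0, with a median of -0.50 and none at least 2-fold apart. They were Cbfa2t3, a transcriptional corepressor (-0.95 ± 0.21, further probes -0.36 and -0.39), Kmo, an enzyme of tryptophan breakdown (-0.23 ± 0.20), the chemokine receptor Ccr7 (-0.22 ± 0.21) and the peptidase Dpp4 (at least 1.71-fold lower). The rule for bounds kept Dpp4 from lying above 0, and its bound enters the median. Kmo and Ccr7 lay close to their spot errors, and the median over all measured genes was -0.08. The shared sign thus says little. Of 10 measured genes of mature dendritic cells, 1 was at least 2-fold lower, against 5.46% of all genes, and 0 higher, against 3.11%. Their median was -0.07. The lower gene was Cd40, a costimulatory receptor that B cells and macrophages share, with 37.2 on the array labelled SIRPα-KO and 98.2 on the WT array (-1.23 ± 0.22). The brightest of this list were Il15ra, which presents interleukin-15 (-0.57 ± 0.20), and the costimulatory ligand Cd80 (0.56 ± 0.20). Of 10 measured genes of MHC class II presentation, none was at least 2-fold apart and the median was -0.15. Ctss, the protease that trims the invariant chain, differed by -0.85 ± 0.20 and H2-Ab1, a class II chain, by 0.13 ± 0.20.

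Over the 7 lists, 65 of 85 genes were measured, and 3 (4.62%) passed 2-fold upward and 3 (4.62%) downward. The median was -0.03, against -0.08 over all measured genes. These shares are near the background shares of 3.11% and 5.46%.

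**Figure D3:**
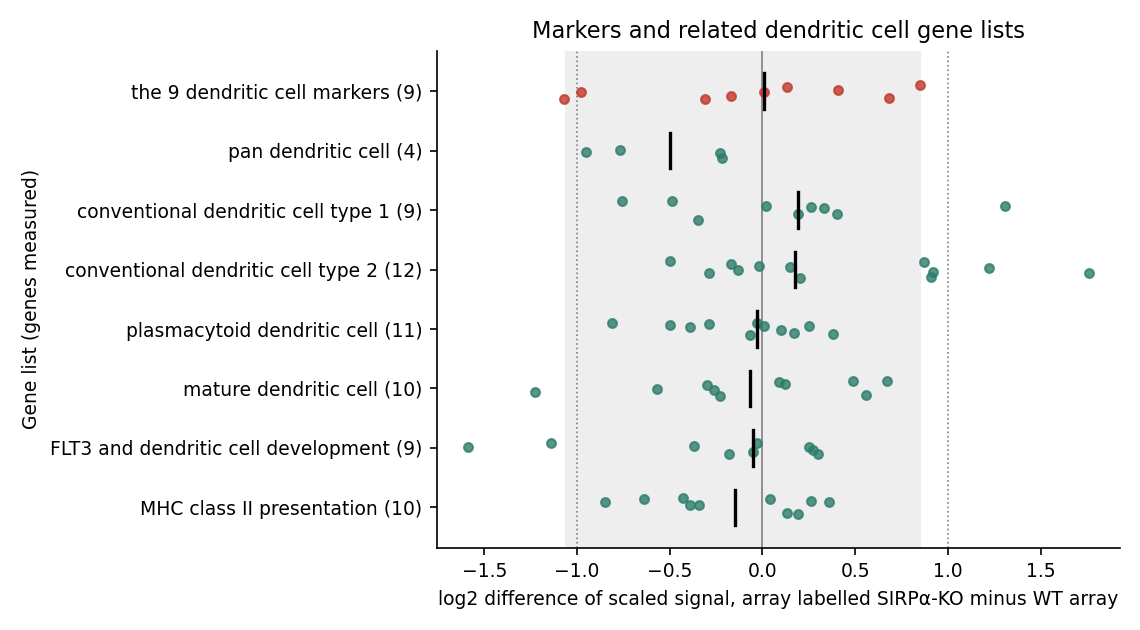
Log2 difference of scaled signal, array labelled SIRPα-KO minus WT array, of the 9 markers at their brightest probes and of the measured genes of the 7 related lists; each point is a gene, black ticks are medians, dotted lines mark 2-fold and the grey band holds the middle 90% of all measured genes (-1.06 to 0.85). The markers run from -1.07 to 0.85 around a median of 0.01, and the list medians run from -0.50 to 0.19.

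Markers of other spleen cells were read on the same arrays, and their part in the values of Flt3 and Cd209a was not tested. Each sum below adds the scaled signals of a list, so its brightest genes weigh most. None of 8 measured monocyte markers was at least 2-fold apart, and the median was -0.17. Their sum was 181 on the KO-labelled array and 246 on the WT array, with Ccr2 well above background on neither. Without the brightest monocyte gene, Vcan, it was 74.7 on the KO-labelled array and 125 on the WT array. Of 7 measured B cell markers 1 was at least 2-fold lower, the complement receptor gene Cr2 (-2.07 ± 0.20, further probe 0.31), and the median was -0.06. The B cell sum was 12.3 on the KO-labelled array and 24.4 on the WT array, and without Cr2 it was 8.65 on the KO-labelled array and 8.97 on the WT array, with Ebf1 and Blk well above background on neither. Of 8 measured T cell markers 1 was lower, the coreceptor gene Cd8b1 (-1.27 ± 0.20), and the median was -0.04. In the tenth of genes with the highest mean signals, where Cd8b1 lies, 18.7% were at least 2-fold lower. The T cell sum was 134 on the KO-labelled array and 305 on the WT array, and without Cd8b1 it was 19 on the KO-labelled array and 26.5 on the WT array. Of 6 measured plasma cell markers 2 were lower, against 5.46% of all genes, the joining chain gene Jchain the most (-2.78 ± 0.20). Their median was -0.50. The plasma cell sum was 27.8 on the KO-labelled array and 36.7 on the WT array. Without its brightest gene, Xbp1, it was 12 on the KO-labelled array and 23.9 on the WT array.

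Of 5 measured neutrophil markers 1 was lower, against 5.46% of all genes, S100a8 (-1.23 ± 0.22), and the median was -0.05. The neutrophil sum was 442 on the KO-labelled array and 458 on the WT array, with Mpo and Ngp well above background on neither. Nearly all of it was the 1 gene Elane, at 441 on the KO-labelled array and 456 on the WT array. Without Elane the sum was 1.47 on the KO-labelled array and 2.07 on the WT array. None of 5 measured NK cell markers was 2-fold apart, the median was -0.17, and Klrd1 was well above background on neither array. The NK cell sum was 7.55 on the KO-labelled array and 8.58 on the WT array. The red pulp macrophage list summed to 209 on the KO-labelled array and 147 on the WT array. Its brightest gene, Adgre1, made up 117 of the sum on the KO-labelled array and 68.1 on the WT array, and the sums without it were 92.6 on the KO-labelled array and 78.8 on the WT array. Of its 12 measured genes 6 lay above 0 and 6 below, with a median of 0.01. At least 2-fold higher were 3, against 3.11% of all genes, Cd5l the most (1.46 ± 0.22), and 0 were lower, against 5.46%. Markers of marginal zone and metallophilic macrophages summed to 33.1 on the KO-labelled array and 21.8 on the WT array. None of their 4 measured genes was 2-fold apart, the median was 0.38, and Cd209b was well above background on neither array.

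Under the 10 alternative settings, the differences of Flt3, Zbtb46 and Clec9a stayed below 0 and those of Itgax, Xcr1 and Siglech above 0. Clec9a could turn above 0 only with no filter on dim probes (-1.52), because the rule for bounds sets a reversed value to 0. Zbtb46 (-0.17 ± 0.21) lay within its spot error, as did Siglech at its dimmer probe (0.03 ± 0.21). Itgax, Xcr1, Zbtb46 and Clec9a have 1 measured probe each, so choosing or averaging probes could not change them. A kept sign thus says little for these genes. Cd209a ranged from -1.15 without scaling to 0.00 at its dimmer probe, which gives no fold. Batf3 ranged from -0.16 to 0.03 and Tcf4 from -0.38 to 0.14, so neither kept a direction.

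**Figure D4:**
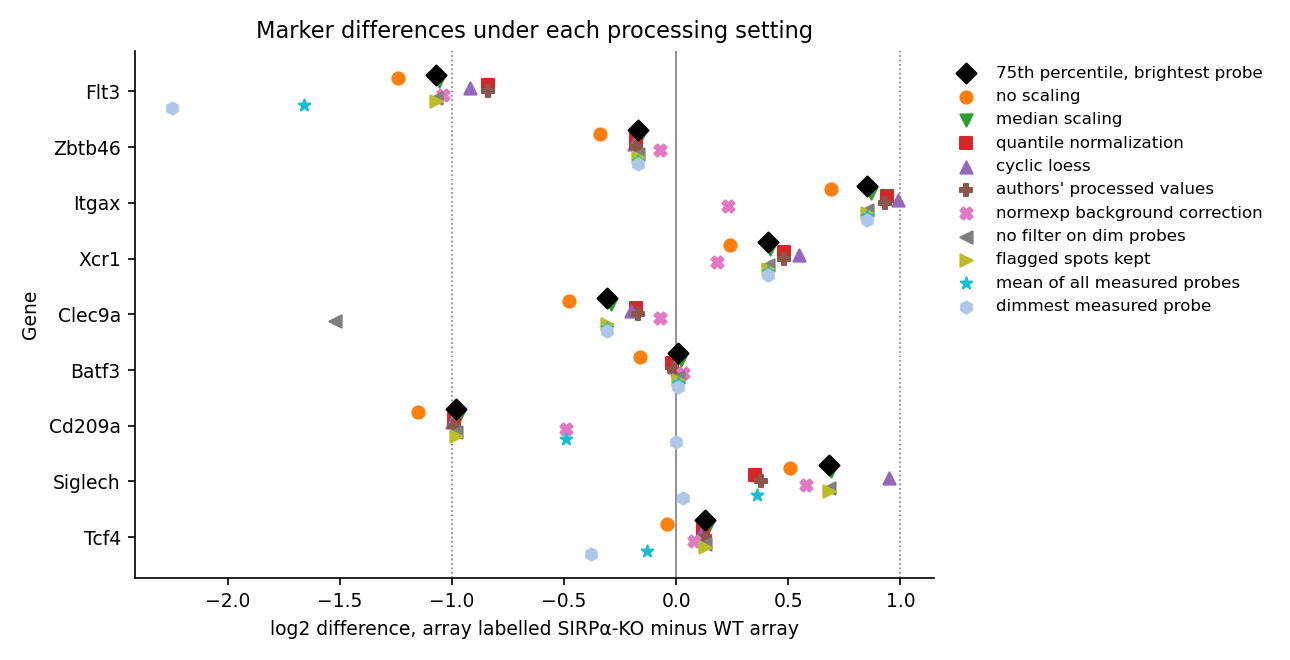
Log2 difference, array labelled SIRPα-KO minus WT array, of each marker gene under 11 processing settings; the black diamond is the value with 75th-percentile scaling at the brightest probe and dotted lines mark 2-fold. Flt3 ranges from -2.25 at its dimmer probe to -0.84 and stays below 0, Itgax and Siglech stay above 0, and Tcf4 and Batf3 lie on both sides of 0.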

How the data were processed

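The deposited scanner tables hold intensity on a linear scale, background-subtracted and spatially detrended with Agilent Feature Extraction 11.0.1.1 on design 26655 (mm9), per the file headers. The deposited table of the authors' log2 values has a median of 4.55 on each array. How those values were normalized is not stated in the labels, and they served as an alternative. Control spots and outlier-flagged spots were left out, and log2 signal was centred on the 75th percentile over all non-control spots of each array (89.1 on the array labelled SIRPα-KO, 100.2 on the WT array). The software marked 65.4% of 39386 probes as well above background for the KO-labelled array and 71.5% for the WT array. Accessions were matched to RefSeq symbols (GRCm38.p6, names only), naming 27206 probes.

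A gene is its brightest probe. A probe not well above background on 1 array gives a bound against the higher of its own signal and the lowest signal well above background there. Where that reversed the sign, no fold is given and 0 enters medians.

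The markers, the gene lists and the rule for named genes were chosen with earlier results of these data known. That rule took the 9 markers, Sirpa, Adgre1, Itgam, list genes at least 2-fold apart and the 2 brightest genes of each dendritic cell list. Genes named outside it were chosen after their values were seen. Quantile, cyclic loess and normexp (offset 50) used limma 3.58.1 in R 4.3.3, and other steps Python 3.11.15. The difference step was tested on simulated data for genes well above background on both arrays. The bound step was not tested that way.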

Additional observations from a re-analysis of the deposited data

How the results depend on the processing

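No paired analysis was possible because each genotype had 1 array. The count of marker genes at least 2-fold lower, 1, was 0 in the authors' values, 0 after quantile normalization, 2 without scaling, 2 with no filter on dim probes, 2 at a limit of 1.5-fold and 0 at 3-fold. After cyclic loess it was again 1, but that gene was Cd209a and not Flt3 (-0.92). The count at least 2-fold higher, 0, was 2 at 1.5-fold, where the all-gene shares were 11.4% higher and 13.3% lower, and 0 under every other setting run. For the 7 dendritic cell lists, the 3 higher genes were 1 after normexp. They were 4 in the authors' values, after quantile normalization, after cyclic loess and with no filter. The 3 lower genes were 5 without scaling, 5 with no filter and 0 after normexp. They were 2 at the dimmest measured probe and at the mean of all measured probes. Normexp used median spot signals, a choice made after the data were seen, because the scanner tables hold no mean signal. Its added offset shrinks differences of dim probes by construction, so a lower count of calls after normexp is no test of those calls. Of 90 marker differences under alternatives, 74 moved by less than their spot error (0.3 for a bound) and 16 by more, and no marker at least 2-fold apart changed sign. Part of the 74 could not move. A gene with 1 measured probe keeps its value at the dimmest probe and at the mean of all measured probes. Median scaling and no scaling shift every probe measured on both arrays by the same amount. The count of 74 is thus no measure of robustness. Clec9a was -1.52 with no filter on dim probes. Over all genes, the 493 higher and 865 lower became 305 and 1168 without scaling, 104 and 581 after normexp, and 879 and 1656 with no filter. Higher genes made up 36.3% of all calls, but 46.8% after quantile normalization, 20.7% without scaling and 15.2% after normexp. The median of all genes moved from -0.08 to -0.25 without scaling. The causes were not tested, beyond what the settings change by construction. Among probes spotted 10 times with signals under 30, where Itgax, Xcr1 and Clec9a lie, the median spot SD was 0.20 on the array labelled SIRPα-KO and 0.21 on the WT array.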
